A study of Mus musculus with 8 samples.

Results

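The 10 genes described here encode the core and naive pluripotency transcription factors of mouse embryonic stem (ES) cells: Pou5f1 (which encodes OCT4), Sox2, Nanog, Klf2, Klf4, Klf5, Esrrb, Tfcp2l1, Tbx3 and Prdm14. They were chosen by name from the 19896 gene IDs present in both deposited tables, and all 10 were found and passed the filter on low values. The study asked whether CCT5 and CCT7, subunits of the cytosolic chaperonin that folds actin and tubulin, act as a barrier between pluripotent and totipotent-like states. The 8 poly(A) RNA libraries came from E14 mouse ES cells and form 4 groups of 2, named Cct7 KD, Cct7 KD Ctr, Cct5 KD and Cct5 KD Ctr. The KD cells carried a doxycycline-inducible pLKO-Tet-on hairpin against Cct7 or Cct5, and the Ctr cells carried the same vector with no hairpin, so the controls held no non-targeting hairpin. All 4 groups grew in serum with LIF, spent 14 days in 0.5 µg/ml puromycin before positive clones were taken, and received 2 µg/ml doxycycline over 2 days. The sources used here give neither the number of clones or hairpins behind a group nor whether replicates were separate cultures, so p-values measure the spread between libraries, which may be technical.

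As background, OCT4 and SOX2 bind DNA side by side at a composite element in the enhancers and promoters of pluripotency genes, and with NANOG they hold up one another's transcription. In serum with LIF this core is joined by naive factors that receive outside signals: Klf4 and Tfcp2l1 are targets of LIF and STAT3, Tbx3 lies downstream of LIF through PI3K signalling, Esrrb is released from TCF7L1 repression by WNT signalling, Klf2 and Klf5 act with Klf4 on shared sites, and PRDM14 represses differentiation genes and FGF signalling. Loss of OCT4 in mouse ES cells is known to lead towards trophoblast, and the naive factors overlap in function enough that the loss of a single KLF factor is tolerated.

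Promoters are printed for the core factors Pou5f1, Sox2 and Nanog, which had similar large changes in Cct7 KD, and for Tfcp2l1, which had the smallest change there. Each window holds the 250 bases before a gene's RefSeq start on GRCm38.p6, 5′ to 3′ on the plus strand, which is the coding strand of all 4 genes. Nanog is at chr6:122707239-122707488, and its capitals mark a composite OCT4-SOX2 element on the reverse strand, 75 to 63 bases before the start, and a KLF-type motif at 10 to 3 bases. Pou5f1 is at chr17:35505782-35506031, and its capitals mark a GC box at 45 to 38 bases and a nuclear receptor motif at 33 to 28 bases before the start. Sox2 is at chr3:34649745-34649994, and its capitals mark an octamer-type motif at 99 to 93 bases. Tfcp2l1 is at chr1:118627695-118627944, and its capitals mark 2 KLF-type motifs on the reverse strand, at 61 to 54 and 47 to 40 bases.
Nanog: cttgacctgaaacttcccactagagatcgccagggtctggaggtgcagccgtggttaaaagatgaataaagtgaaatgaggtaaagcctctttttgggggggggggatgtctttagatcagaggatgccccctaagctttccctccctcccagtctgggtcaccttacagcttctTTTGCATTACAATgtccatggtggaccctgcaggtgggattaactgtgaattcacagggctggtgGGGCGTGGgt
Pou5f1: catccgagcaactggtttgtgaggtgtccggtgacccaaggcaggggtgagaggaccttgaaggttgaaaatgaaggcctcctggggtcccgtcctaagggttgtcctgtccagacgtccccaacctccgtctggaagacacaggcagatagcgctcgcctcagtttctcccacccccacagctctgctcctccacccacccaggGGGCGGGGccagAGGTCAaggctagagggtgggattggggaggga
Sox2: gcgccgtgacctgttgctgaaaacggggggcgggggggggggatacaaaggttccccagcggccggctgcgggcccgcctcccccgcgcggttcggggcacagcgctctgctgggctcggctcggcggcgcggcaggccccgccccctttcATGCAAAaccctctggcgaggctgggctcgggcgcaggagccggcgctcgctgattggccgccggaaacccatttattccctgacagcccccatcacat
Tfcp2l1: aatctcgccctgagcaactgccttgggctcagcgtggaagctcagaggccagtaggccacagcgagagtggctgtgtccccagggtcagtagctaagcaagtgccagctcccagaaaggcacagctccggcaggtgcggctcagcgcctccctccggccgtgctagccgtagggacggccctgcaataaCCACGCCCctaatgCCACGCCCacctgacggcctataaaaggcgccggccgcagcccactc

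RefSeq windows were matched for 7 of the 10 members, 10 windows in all because Nanog, Pou5f1 and Esrrb have several starts. The composite element, taken as ATTGT and ATGCAAA 1 base apart, was found on either strand in 8 of all 32851 windows (0.0244%). Both Nanog windows were among those 8, and no other member's window was. The Nanog windows overlap and hold the same copy of the element, so 1 element counts as 2 windows. The octamer-type motif ATGCAAA, which the composite element contains, was in 4.12% of all windows and in those of Sox2 and Nanog. The KLF-type motif GGGNGTGG was in 15.9% of all windows, in both of Nanog, in 1 of the 2 of Pou5f1 and in that of Tfcp2l1. The GC box GGGCGGGG was in 16.1% of windows, in those of Sox2, Klf4 and Klf2 and in 1 of the 2 of Pou5f1. AGGTCA was in 14.0%, in that of Sox2 and in 1 of the 2 windows each of Nanog and Pou5f1. Both strands were searched, and a match describes letters in the window only. A STAT-type motif, TTCNNNGAA, was in 7.02% of windows and among the members in 1 of the 2 of Esrrb, and TATAAA was in 12.4% and in that of Tfcp2l1.

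Values were FPKM, fragments scaled by gene length and sequencing depth. A change is the difference in log2(FPKM + 1), KD minus its own Ctr, from a limma fit over all genes that averaged 1 FPKM or more. The targets were reduced, with Cct7 at 5.86% of its control level in Cct7 KD and Cct5 at 19.6% in Cct5 KD. Depth, estimated from the steps of the FPKM values, was 20.8 M and 18.9 M fragments in Cct7 KD, 22.3 M and 23.4 M in Cct7 KD Ctr, and 54.8 M and 21.2 M in Cct5 KD Ctr, and could not be settled for Cct5 KD. Each Cct5 KD column holds 1.125 times the Cct7 KD column of the same number plus a remainder, and the multiple makes up 71.3% of its FPKM total. Cct5 itself is an exception, 1 of 15 genes whose remainder would be negative: it was at 70.8 and 73.4 FPKM in Cct5 KD, below the 280.0 and 271 FPKM of Cct7 KD. For Cct7 the remainder was 280.5 and 279 FPKM before scaling, against 277.5 and 277.3 in Cct5 KD Ctr. With the median-of-ratios scaling explained below, on which the members' remainders are compared, Cct7 was higher by 1.39 in log2. There, 97.0% of tested genes had a lower change. FPKM totals were 749001 and 747293 in Cct5 KD, against 496507 and 497663 in Cct5 KD Ctr. The Cct5 KD values are therefore no second, independent knockdown, and they are described after Cct7 KD, with the remainder beside them. Summed ES cell markers, 10 of 10 listed genes and including Pou5f1, Sox2 and Nanog, stood at 1086 and 1097 FPKM in Cct7 KD, against 5584 and 5793 in Cct7 KD Ctr. Sums of trophoblast, germ cell and 2-cell-like markers were higher in the KD libraries, with values given after the gene lists.

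In the controls the 10 genes spanned a wide range of levels. In Cct7 KD Ctr, Pou5f1 stood highest at 445 and 458 FPKM, followed by Sox2 at 325 and 344 and Nanog at 299 and 300.2, with no overlap between neighbours. Klf2 at 83.3 and 84.8 FPKM and Esrrb at 80.2 and 78.8 came next, then Klf5, Tfcp2l1 and Klf4 between 21.8 and 32.7, and Prdm14 and Tbx3 at 17.0 or less. The same order held in Cct5 KD Ctr down to Nanog, while Esrrb and Klf2 overlapped there, and so did Tbx3 and Prdm14.

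The members differed little between the control groups. None of the 10 was called in Cct5 KD Ctr against Cct7 KD Ctr by limma, where 0% of 12762 tested genes were called (0 genes, with 2296 at an unadjusted p under 0.05), and 2 members had an unadjusted p under 0.05. These were Prdm14 at 14.9 and 13.8 FPKM in Cct5 KD Ctr, against 16.2 and 17.0 in Cct7 KD Ctr (log2 difference −0.20, adjusted p 0.17 after Benjamini-Hochberg adjustment in limma), and Klf2 at 73.3 and 76.1, against 83.3 and 84.8 (−0.17, adjusted p 0.13). With all 8 libraries in 1 limma fit, Klf2 was called at the same difference with an adjusted p of 0.030, among 444 of 13840 genes called.

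**Figure D1:**
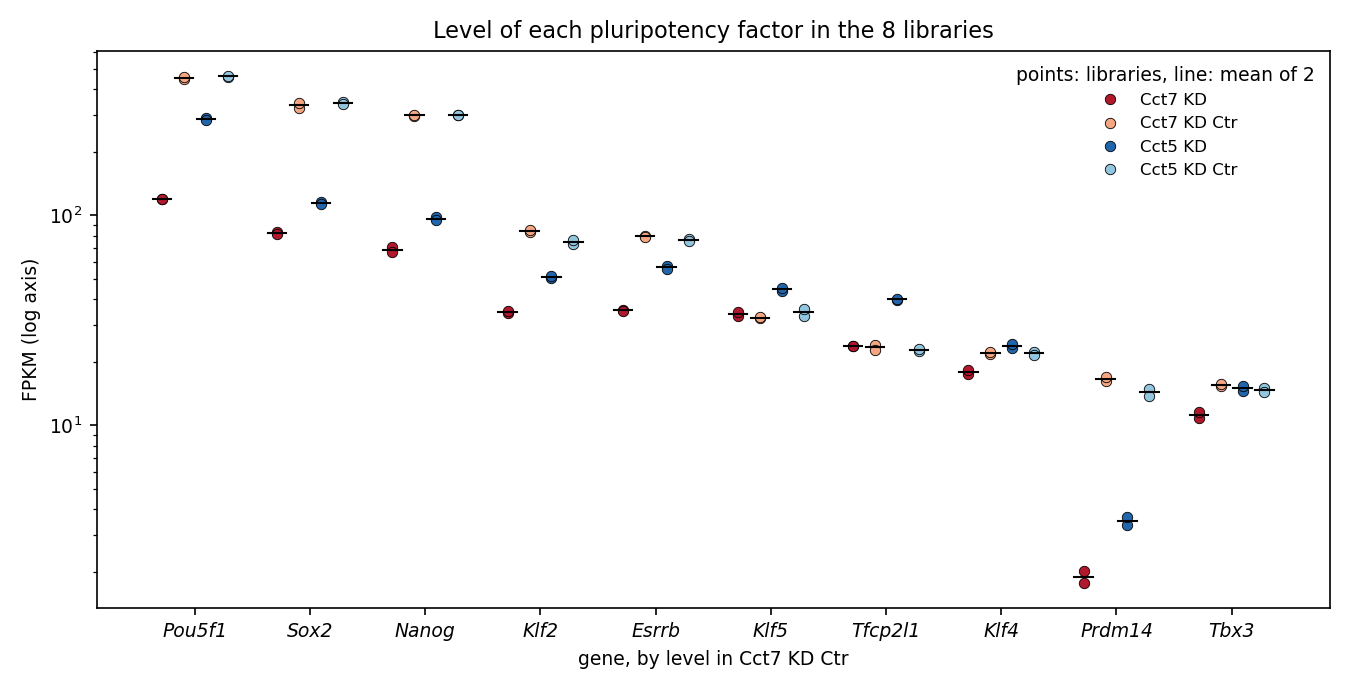
Level of each factor in FPKM on a log axis, with the genes ordered by their level in Cct7 KD Ctr. Points are single libraries and lines are means of 2 libraries. Pou5f1, Sox2 and Nanog lie highest in all 4 groups, and Prdm14 drops to the lowest level in both KD groups, at 1.78 and 2.02 FPKM in Cct7 KD.

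In Cct7 KD, Prdm14 and the core factors fell most, Klf2 and Esrrb fell less, Tbx3 and Klf4 fell slightly, and Klf5 and Tfcp2l1 were not called. Of the 10 factors, 8 fell, none rose and 2 were not called by limma at a Benjamini-Hochberg adjusted p under 0.05, where 32.0% of the 13588 tested genes were lower and 49.3% were higher. The median change of the 10 was −1.20, beside 0.15 over all genes tested. With median-of-ratios scaling, which sets the typical gene's change near 0 by dividing each library by its median ratio to the genes' geometric means, the median of all genes was −0.06 and that of the members −1.45. All 10 members were then called lower, where 43.7% of genes were lower and 37.4% higher. The order of the 10 changes was the same under both scalings. Whether fewer cells held these RNAs or each cell held less of them cannot be told apart in bulk libraries.

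Prdm14, a PR-domain zinc finger protein that recruits repressive complexes to differentiation genes, had the largest change of the 10. It stood at 1.78 and 2.02 FPKM in Cct7 KD, against 16.2 and 17.0 in Cct7 KD Ctr, 8.73-fold lower in mean FPKM. The groups lie far apart, and Prdm14 stood below Tbx3 in Cct7 KD but above it in Cct7 KD Ctr. Its log2 change was −2.60 (SE 0.0659, 95% interval −2.77 to −2.44, adjusted p 3.3e-06 in limma with Benjamini-Hochberg adjustment), and 0.390% of tested genes had a lower change. On a log2(FPKM + 1) scale the change of so low a gene is understated. By the estimated depth and the length of its single annotated transcript, its KD level rests on about 95 and 98 fragments (95% Poisson intervals 76.9 to 116 and 79.6 to 119, counting error only), against 927 and 1020 in Cct7 KD Ctr. Prdm14 lies on chromosome 1 at 13113457 to 13127163 of GRCm38, minus strand.

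The 3 core factors came next and close together. Nanog, a homeodomain protein that stabilises self-renewal, was at 70.4 and 67.2 FPKM in Cct7 KD, against 299 and 300.2 in Cct7 KD Ctr (4.35-fold lower, log2 change −2.11, 95% interval −2.18 to −2.03). Sox2, the HMG-box partner of OCT4, was at 83.2 and 81.6 FPKM in Cct7 KD, against 325 and 344 in Cct7 KD Ctr (4.06-fold lower, −2.01, interval −2.10 to −1.92). Pou5f1, whose POU-domain product is required for the pluripotent state itself, was at 119 and 119.5 FPKM in Cct7 KD, against 445 and 458 in Cct7 KD Ctr (3.78-fold lower, −1.91, interval −1.98 to −1.84). No KD library came near a control library for any of the 3 genes. Adjusted p in limma with Benjamini-Hochberg adjustment was 1.2e-06 for Nanog and Pou5f1 and 1.5e-06 for Sox2. The interval of Sox2 overlapped those of Nanog and of Pou5f1, while Prdm14 above and Klf2 below this group had intervals clear of it. Nanog lies on chromosome 6 at 122707489 to 122714633, Sox2 on chromosome 3 at 34650405 to 34652461 and Pou5f1 on chromosome 17 at 35506018 to 35510772, all on the plus strand.

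Klf2 and Esrrb formed a middle stratum. Klf2, a Krüppel-like zinc finger factor of ground-state ES cells, was at 34.4 and 34.9 FPKM in Cct7 KD, against 83.3 and 84.8 in Cct7 KD Ctr. Esrrb, an orphan nuclear receptor that can stand in for NANOG in self-renewal, was at 35.6 and 34.9 FPKM in Cct7 KD, against 80.2 and 78.8 in Cct7 KD Ctr. Both fell by limma, to a similar degree: the change was −1.25 for Klf2 (interval −1.32 to −1.19, adjusted p 2.3e-06 after Benjamini-Hochberg adjustment) and −1.15 for Esrrb (−1.22 to −1.08, adjusted p 2.9e-06). The share of tested genes with a lower change was 4.00% for Klf2 and 4.87% for Esrrb. In Cct7 KD these genes and Klf5 all lay between 33.2 and 35.6 FPKM. Klf2 is on chromosome 8 at 72319033 to 72321656 and Esrrb on chromosome 12 at 86361117 to 86521628, both on the plus strand.

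Tbx3 and Klf4 moved much less. Tbx3, a T-box repressor that helps hold the naive state and also takes part in extraembryonic endoderm formation, was at 10.8 and 11.6 FPKM in Cct7 KD, against 15.4 and 15.8 in Cct7 KD Ctr, or 71.8% of control. Klf4, a reprogramming factor driven by LIF and STAT3, was at 17.6 and 18.4 FPKM in Cct7 KD, against 21.8 and 22.4 in Cct7 KD Ctr, or 81.4% of control. The KD libraries lay below the control libraries for both genes, and both fell by limma (−0.45, adjusted p 0.00034 for Tbx3, and −0.28, adjusted p 0.001 for Klf4, Benjamini-Hochberg adjustment). Their intervals overlapped each other and no others. As many as 26.8% of tested genes had a lower change than Klf4. Tbx3 is on chromosome 5 at 119670669 to 119684724, plus strand, and Klf4 on chromosome 4 at 55527143 to 55532466, minus strand.

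Klf5 and Tfcp2l1 had the smallest changes, and their direction depended on the scaling. Tfcp2l1, a CP2-family factor that carries the LIF and STAT3 signal in ES cells, was at 23.8 and 23.9 FPKM in Cct7 KD, inside the 24.2 and 23.0 of Cct7 KD Ctr. Klf5, a Krüppel-like factor also needed in the trophectoderm and inner cell mass of the blastocyst, was at 33.2 and 34.8 FPKM in Cct7 KD, just above the 32.4 and 32.7 of Cct7 KD Ctr. Neither was called in limma on the deposited values: the change was 0.02 for Tfcp2l1 (interval −0.08 to 0.11, adjusted p 0.7 after Benjamini-Hochberg adjustment) and 0.06 for Klf5 (−0.03 to 0.15, adjusted p 0.16). With median-of-ratios scaling both were called lower in limma, at −0.23 for Tfcp2l1 (adjusted p 0.0025) and −0.18 for Klf5 (adjusted p 0.0035). The interval of their change did not reach that of Klf4 under either scaling. Tfcp2l1 is on chromosome 1 at 118627945 to 118685168 and Klf5 on chromosome 14 at 99298691 to 99315036, both on the plus strand.

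**Figure D2:**
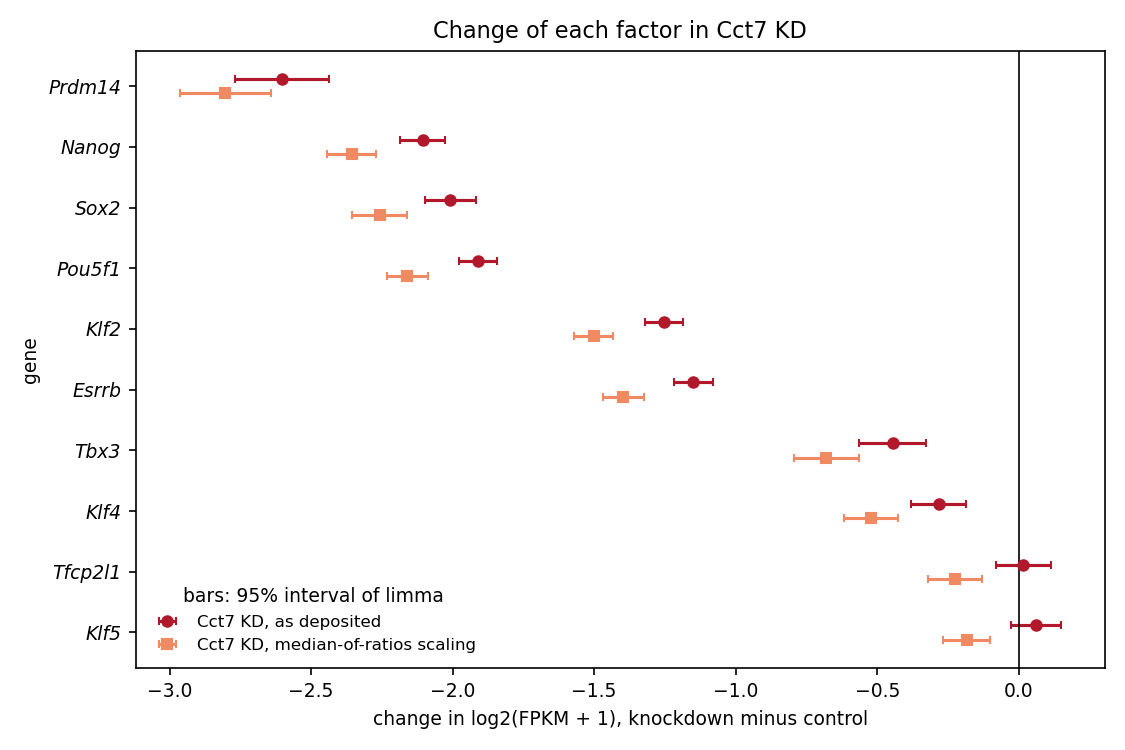
Change of each factor in log2(FPKM + 1), Cct7 KD minus Cct7 KD Ctr, on the deposited values (circles) and with median-of-ratios scaling (squares). Bars are 95% intervals of the limma fit on 2 libraries a group. The strata run from Prdm14 at −2.60 to Klf5 at 0.06, and scaling shifts all 10 changes to the left without altering their order.

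Ratios between factors within a library are untouched by any scaling of that library. Relative to Pou5f1, Sox2 stood at 0.698 and 0.683 in Cct7 KD, against 0.730 and 0.752 in Cct7 KD Ctr, a log2 difference of only −0.10. Nanog relative to Pou5f1 was 0.590 and 0.562 in Cct7 KD, against 0.672 and 0.655 in Cct7 KD Ctr (−0.20). The core factors thus stayed close to their control proportions while their levels fell. Klf5 relative to Pou5f1 was 0.278 and 0.291 in Cct7 KD, against 0.0729 and 0.0713 in Cct7 KD Ctr (1.98), and Tfcp2l1 was 0.199 and 0.200, against 0.0544 and 0.0501 (1.94). Klf4 was 0.147 and 0.154 of the Pou5f1 level in Cct7 KD, against 0.0490 and 0.0489 in Cct7 KD Ctr (1.62). Tbx3 was 1.44 higher on the log2 scale, Esrrb 0.75 and Klf2 0.64, and Prdm14 lower by more than any other, with a log2 difference of −1.21. With 1 added to each FPKM before the ratio, the difference of Prdm14 was −0.69. No ratio overlapped between the groups, but all share Pou5f1, which itself fell, as their denominator. How many other genes would also show no overlap was not counted, so the lack of overlap cannot be read as a result about the members. The exact permutation test over libraries gave p = 0.333 for each of the 18 ratios tested in both knockdowns, the smallest p that 2 against 2 allows.

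**Figure D3:**
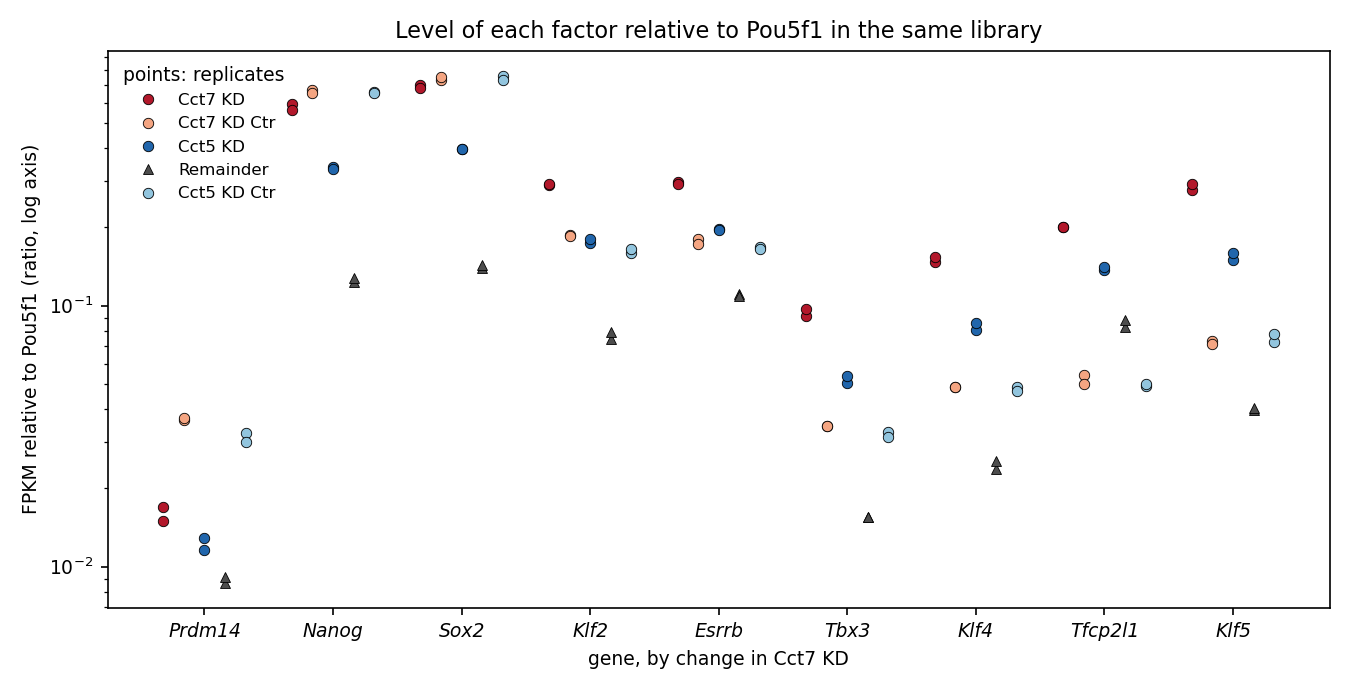
FPKM of each factor relative to Pou5f1 in the same library, on a log axis, with the genes ordered by their change in Cct7 KD. Points are single libraries, and triangles are the remainder of Cct5 KD. In Cct7 KD, Sox2 and Nanog stay near their control ratios, and Tbx3, Klf4, Tfcp2l1 and Klf5 stand above theirs.

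The make-up of the network shifted accordingly. The summed level of the 10 factors was 430.2 and 428.9 FPKM in Cct7 KD, against 1342 and 1377 in Cct7 KD Ctr. Pou5f1, Sox2 and Nanog together made up 63.5% and 62.6% of that sum in Cct7 KD, against 79.6% and 80.1% in Cct7 KD Ctr. Klf2, Klf4 and Klf5 made up 19.8% and 20.5% in Cct7 KD, against 10.2% and 10.2% in Cct7 KD Ctr. Within these 3 KLF factors the balance also moved, with Klf5 giving 38.9% and 39.5% of their sum in Cct7 KD, against 23.6% and 23.3% in Cct7 KD Ctr. Klf2 was 1.04 and 1.00 times the Klf5 level in Cct7 KD, against 2.57 and 2.60 times in Cct7 KD Ctr.

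**Figure D4:**
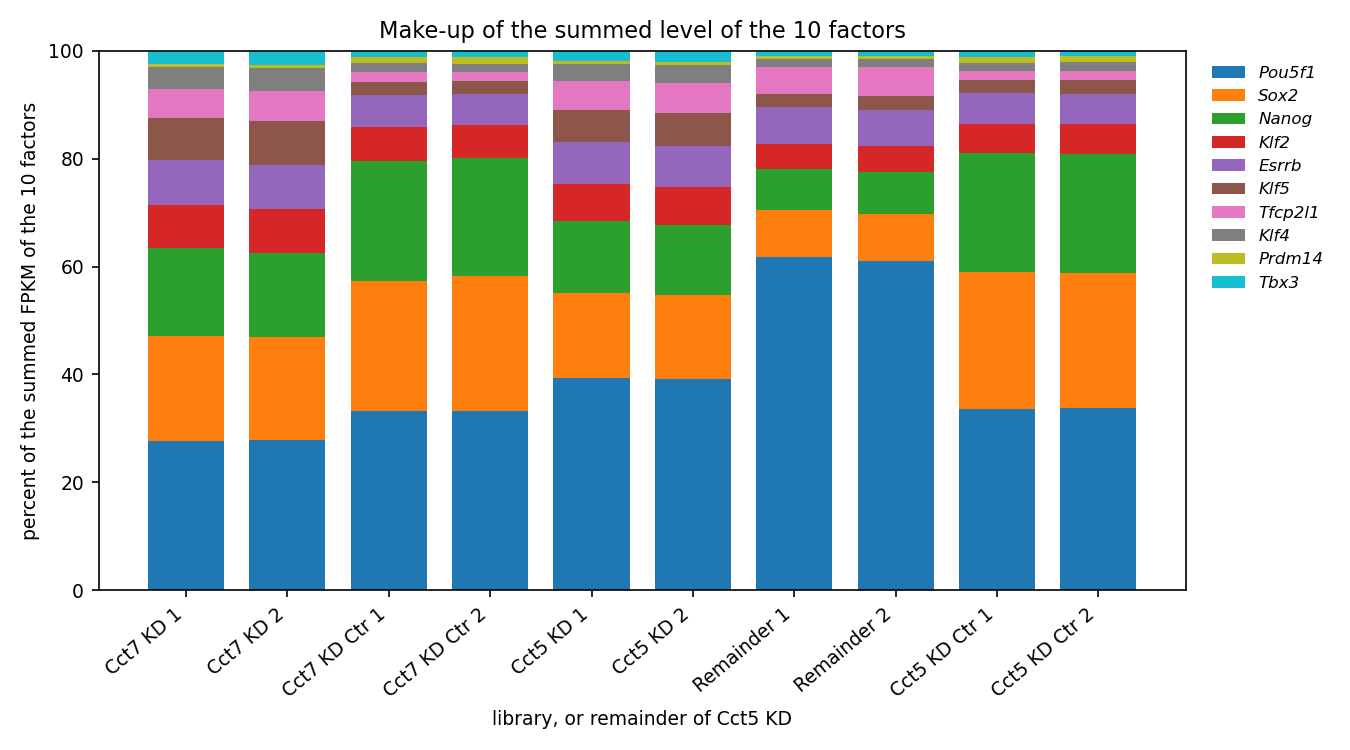
Share of each factor in the summed FPKM of the 10 factors, in percent, for each library and for the remainder of Cct5 KD. The 3 lowest blocks are Pou5f1, Sox2 and Nanog, whose share is 63.5% and 62.6% in Cct7 KD, against 79.6% and 80.1% in Cct7 KD Ctr. In the remainder Pou5f1 alone takes 61.8% and 61.1%.

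In the Cct5 KD values, 6 factors fell, 3 rose and 1 was not called by limma, where 11.3% of the 14179 tested genes were lower and 78.0% higher. With median-of-ratios scaling, 9 fell, none rose and Tfcp2l1 was not called, where 42.7% of genes were lower and 38.5% higher. The median change of all genes was 0.68 on the deposited values and −0.04 after scaling, and the members' median was −0.49 and −1.30. Klf4 and Klf5 therefore turn from higher to lower with the scaling, while the rise of Tfcp2l1 is no longer called. Tbx3, not called on the deposited values, becomes lower, and the other 6 are lower either way. In the remainder, set against Cct5 KD Ctr with median-of-ratios scaling, 9 factors were lower and Tfcp2l1 was higher, where 43.3% of 11701 genes were lower and 41.6% higher. The remainder holds only 28.7% of the Cct5 KD total, so directions in it depend on this scaling. None of the 10 had a negative remainder, and the members' median there was −1.07, beside −0.01 for all genes.

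Prdm14, Nanog and Sox2 had the largest changes in the Cct5 KD values too. Prdm14 was at 3.36 and 3.66 FPKM in Cct5 KD, against 14.9 and 13.8 in Cct5 KD Ctr (log2 change −1.77, adjusted p 2.1e-06 in limma with Benjamini-Hochberg adjustment; −2.47 scaled). Nanog was at 98.5 and 94.8 FPKM in Cct5 KD, against 303 and 302 in Cct5 KD Ctr (−1.63; −2.46 scaled). Sox2 was at 115 and 113 FPKM in Cct5 KD, against 348 and 339 in Cct5 KD Ctr (−1.58; −2.40 scaled). Adjusted p was 3e-07 for both Nanog and Sox2 in limma with Benjamini-Hochberg adjustment. The multiple of Cct7 KD accounts for 81.1% and 81.0% of the Sox2 value and 80.4% and 79.7% of the Nanog value, so most of each Cct5 KD level of these genes repeats Cct7 KD. What was left over was 21.8 and 21.5 FPKM for Sox2 and 19.3 and 19.2 FPKM for Nanog. On the scaled remainder, the changes were −2.57 for Sox2, −2.56 for Nanog and −1.63 for Prdm14.

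Pou5f1 parted from its partners in the Cct5 KD values. It was at 290.3 and 285 FPKM in Cct5 KD, against 459 and 461 in Cct5 KD Ctr (−0.68, adjusted p 1.2e-06 in limma with Benjamini-Hochberg adjustment; −1.50 scaled). The multiple accounts for 46.2% and 47.2% of this value, the lowest share among the 10, which leaves 156 and 151 FPKM in the remainder. On the scaled remainder the change of Pou5f1 was −0.21 (SE 0.0277, adjusted p 0.00053 in limma with Benjamini-Hochberg adjustment), with 39.2% of tested genes lower, close to the middle of all genes. Sox2 relative to Pou5f1 was 0.140 and 0.143 in the remainder, against 0.758 and 0.735 in Cct5 KD Ctr, and Nanog relative to Pou5f1 was 0.123 and 0.127, against 0.659 and 0.654. Nanog relative to Sox2 hardly differed, at 0.882 and 0.892 in the remainder, against 0.870 and 0.890 in Cct5 KD Ctr. Whether Sox2 and Nanog separate from Pou5f1 in Cct5-depleted cells or in the way these columns came about cannot be told apart.

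Klf2 was at 50.4 and 51.2 FPKM in Cct5 KD, against 73.3 and 76.1 in Cct5 KD Ctr, a change of −0.55 (−1.36 scaled, −1.24 in the remainder). Esrrb was at 57.3 and 55.8 FPKM in Cct5 KD, against 76.9 and 75.7 in Cct5 KD Ctr, a change of −0.43 (−1.24 scaled, −0.78 in the remainder). Both fell under each of these treatments of the values, with adjusted p in limma after Benjamini-Hochberg adjustment of 8.9e-06 for Klf2 and 1.6e-05 for Esrrb on the deposited values.

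The remaining 4 naive factors stood at or above control in the deposited Cct5 KD values. Tbx3 was at 14.6 and 15.4 FPKM in Cct5 KD, overlapping the 15.1 and 14.5 of Cct5 KD Ctr (0.02, adjusted p 0.71 in limma with Benjamini-Hochberg adjustment; −0.76 scaled). Klf4 was at 23.5 and 24.5 FPKM in Cct5 KD, against 22.4 and 21.7 in Cct5 KD Ctr (0.12, adjusted p 0.023 in limma with Benjamini-Hochberg adjustment; −0.68 scaled). This call was lost without Cct5 KD replicate 2 (0.09, adjusted p 0.13 in limma) and without Cct5 KD Ctr replicate 2 (0.10, adjusted p 0.097). Klf5 was at 43.5 and 45.3 FPKM in Cct5 KD, against 33.2 and 35.8 in Cct5 KD Ctr (0.35, adjusted p 0.00045 in limma with Benjamini-Hochberg adjustment; −0.45 scaled). Tbx3, Klf4 and Klf5 changed to a like degree in the scaled remainder, at −1.08, −1.06 and −1.04. The multiple of Cct7 KD makes up 84.3% to 86.5% of the Cct5 KD values of Klf4 and Klf5.

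Tfcp2l1 stood apart from the other 9 factors. It was at 39.7 and 40.2 FPKM in Cct5 KD, against 22.5 and 23.0 in Cct5 KD Ctr (0.78, adjusted p 2.3e-06 in limma with Benjamini-Hochberg adjustment), and the scaled change was −0.017 (adjusted p 0.59). Its remainder was 12.9 and 13.3 FPKM, which is 57.5% of control in mean FPKM and below both control libraries before scaling. After scaling it was 0.55 above control (adjusted p 8.6e-06 in limma with Benjamini-Hochberg adjustment), the only rise among the 10 there. Of tested genes, 78.0% had a lower change. The direction of Tfcp2l1 in the remainder thus rests on the scaling. Relative to Pou5f1, Tfcp2l1 was at 0.0828 and 0.0879 in the remainder, against 0.0490 and 0.0499 in Cct5 KD Ctr.

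**Figure D5:**
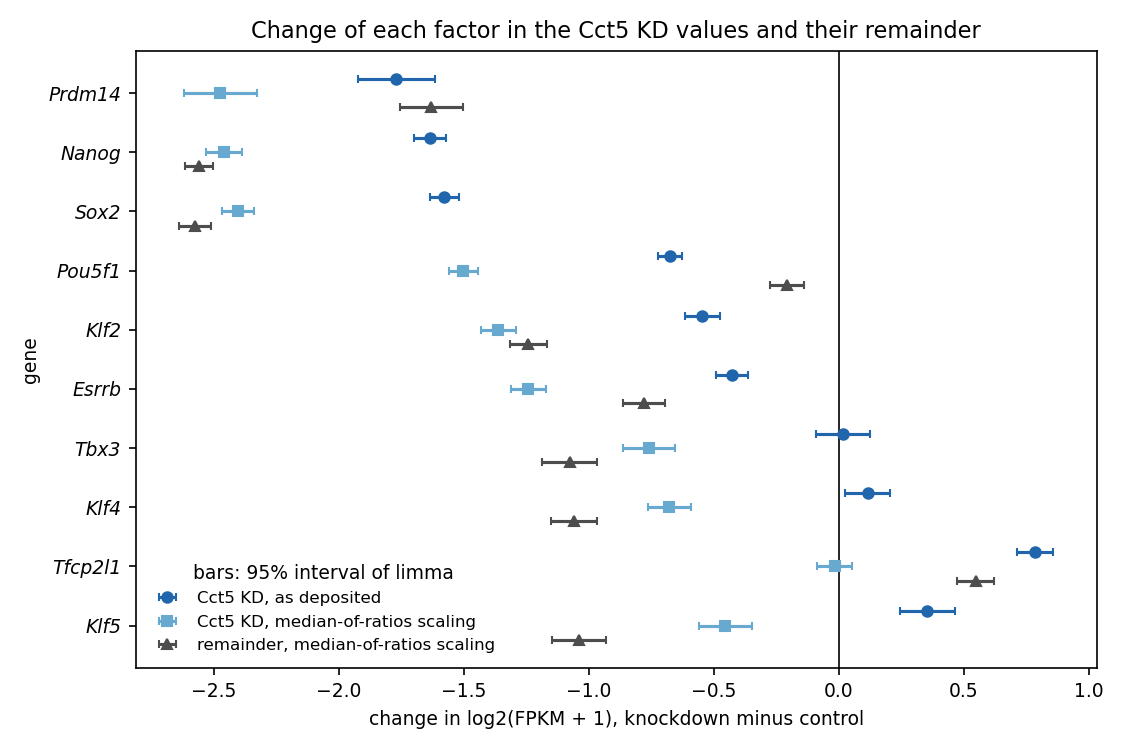
Change of each factor in log2(FPKM + 1) against Cct5 KD Ctr, for Cct5 KD as deposited (circles), Cct5 KD with median-of-ratios scaling (squares) and the remainder with median-of-ratios scaling (triangles). Bars are 95% intervals of the limma fit on 2 libraries a group. Sox2 and Nanog lie far to the left in all 3, while Pou5f1 is at −0.21 and Tfcp2l1 at 0.55 in the remainder.

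Genes that overlap a member could share its reads, since counting is not stated to use strand. Gm19553, antisense to Pou5f1, was at 4.38 and 3.97 FPKM in Cct7 KD, against 9.14 and 10.2 in Cct7 KD Ctr. Sox2ot, which spans Sox2 on the same strand, was at 2.41 and 1.49 FPKM in Cct7 KD, against 5.25 and 4.97 in Cct7 KD Ctr. Tbx3os1, opposite to Tbx3, reached 1.00 FPKM at most in the 8 libraries. Each was far below the member it overlaps, and its part in the member's value was not tested.

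Some other genes traced a pattern over the 8 libraries much like a member's. Likeness was the Euclidean distance on log2(FPKM + 1), centred on the 4 controls, among 6716 other genes averaging 10 FPKM or more (6717 for Prdm14). Dppa5a, a KH-domain RNA-binding protein used as an ES cell marker, was nearest to Pou5f1 at a distance of 0.157. It was at 468 and 478 FPKM in Cct7 KD, against 1800 and 1966 in Cct7 KD Ctr, and at 1244 and 1256 in Cct5 KD, against 1933 and 1891 in Cct5 KD Ctr. The next nearest to Pou5f1 were the helicase gene Pif1 at 0.308 and the DNA polymerase delta subunit gene Pold2 at 0.341. For Sox2 they were Phlda2 at 0.167, Nanog at 0.173 and Klhl13 at 0.189, and for Nanog they included Enah at 0.155 and Sox2 at 0.173. Sox2 and Nanog were thus among each other's 3 nearest genes, and Pou5f1 was among neither's. The distances also count the Cct5 KD libraries, whose values hold a multiple of those of Cct7 KD. Changes of Pou5f1 and Sox2 were close in Cct7 KD, at −1.91 and −2.01, but −0.68 and −1.58 in Cct5 KD. The distance between these genes therefore rests mainly on the Cct5 KD values. For Prdm14 the nearest were Esrp1 at 0.269, Pla2g10 at 0.292 and the Polycomb gene Phc1 at 0.324, and for Tfcp2l1, the member with the smallest change in Cct7 KD, they were Asl at 0.0777, Paip2b at 0.0848 and Pias1 at 0.0905. Over the 10 members, the smallest distances after Sox2 to Nanog were Klf4 to Tbx3 at 0.271 and Klf2 to Esrrb at 0.293.

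Most other transcription factors of the pluripotency network were lower too. Of 21 tested, 16 fell, 3 rose and 2 were not called in Cct7 KD, with a median of −1.40. Over all tested genes, 32.0% were lower and 49.3% higher there, and the median was 0.15. The gene lists overlap: Zfp42, Utf1 and Dppa4 are also counted among the OCT4-SOX2 targets, Stat3 among the signalling inputs, Tcf7l1 among the inputs and the exit factors, Zfp281 among the exit factors and Sall4 among the protein partners. Zfp42, the REX1 gene and a marker of naive cells, averaged 87.7 FPKM in Cct7 KD, against 583 in Cct7 KD Ctr (−2.72). Mycn fell to 3.99 FPKM in Cct7 KD, against 65.4 in Cct7 KD Ctr (−3.73), Mybl2 to 34.4, against 176 (−2.33), and Utf1 to 15.3, against 78.0 (−2.28). Stat3 and Trp53 rose under both scalings, and Gbx2 rose on the deposited values only. In the Cct5 KD values 14 of 21 were lower, 18 after scaling, and 18 in the remainder, beside 11.3%, 42.7% and 43.3% of all tested genes.

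Genes known to hold an OCT4-SOX2 composite element were nearly all lower. Of 10 tested, 9 fell and none rose in Cct7 KD (median −2.33), and all 10 fell with median-of-ratios scaling (−2.56). Over all tested genes, 32.0% were lower and 49.3% higher there, and 43.7% and 37.4% with scaling. Fgf4, the textbook target of OCT4 and SOX2 and an autocrine signal of ES cells, averaged 66.8 FPKM in Cct7 KD, against 1051 in Cct7 KD Ctr (−3.96). Lefty1 averaged 1.09 FPKM in Cct7 KD, against 22.5 in Cct7 KD Ctr (−3.49), and Tdgf1, a NODAL co-receptor, 133.5, against 887 (−2.72). In the Cct5 KD values 8 fell and Spp1 rose, and 9 fell and Spp1 rose both after scaling and in the remainder. Of all genes, 11.3% were lower and 78.0% higher in Cct5 KD as deposited, 42.7% and 38.5% after scaling, and 43.3% and 41.6% in the remainder. Of 21 naive and general pluripotency genes, which share Fgf4, Tdgf1, Gdf3, Fbxo15 and Spp1 with the targets, 17 fell and 2 rose in Cct7 KD (median −1.30), and in Cct5 KD 14 fell and 5 rose (18 and 3 scaled; 16 and 2 in the remainder). Among them Tdh, threonine dehydrogenase, averaged 7.88 FPKM in Cct7 KD, against 119 in Cct7 KD Ctr, and Dppa3 4.39, against 70.3.

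Of 14 genes of the LIF, BMP and WNT inputs, 7 rose, 6 fell and 1 was not called in Cct7 KD (median 0.12), and 5 rose and 7 fell after scaling (−0.10). These shares are near those of all tested genes, of which 49.3% were higher and 32.0% lower, and 37.4% and 43.7% after scaling. Jak1, the kinase of the LIF receptor complex, averaged 33.8 FPKM in Cct7 KD, against 13.9 in Cct7 KD Ctr (1.22), and Bmpr1a 34.3, against 18.7 (0.84). Lifr, the LIF receptor, averaged 103 FPKM in Cct7 KD, against 199.7 in Cct7 KD Ctr (−0.94), and Lef1 0.687, against 5.68 (−1.99). In Cct5 KD 9 rose and 3 fell, 5 and 9 after scaling, and 5 and 8 in the remainder, where all genes were 78.0% higher and 11.3% lower, 38.5% and 42.7% after scaling, and 41.6% and 43.3% in the remainder.

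Factors of exit from the naive state were also lower for the most part. Of 13 tested, 11 fell and 1 rose in Cct7 KD (median −0.33), beside 32.0% of all genes lower and 49.3% higher. Otx2, which drives the passage to formative pluripotency, averaged 1.38 FPKM in Cct7 KD, against 78.0 in Cct7 KD Ctr (−5.05), a larger change than that of any of the 10 factors. Etv5, an FGF-responsive ETS factor, averaged 29.8 FPKM, against 103 (−1.76). In Cct5 KD 7 of 15 fell and 8 rose on the deposited values, 13 and 2 after scaling, and 10 and 2 of 13 in the remainder. Of all genes, 11.3% were lower and 78.0% higher as deposited, 42.7% and 38.5% after scaling, and 43.3% and 41.6% in the remainder. Of 12 protein partners of PRDM14 and NANOG, 9 fell and none rose in Cct7 KD (median −0.35), among them Tet1 at 19.2 FPKM, against 61.9 in Cct7 KD Ctr (−1.64), and Cbfa2t2, the corepressor that PRDM14 binds, at 12.9, against 29.1 (−1.11). In Cct5 KD 5 partners fell and 7 rose, 12 fell after scaling, and 9 fell in the remainder, to be read against the same shares of all genes.

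Markers of other cell types moved in several directions beside the 10 factors. Of all tested genes, 49.3% were higher and 32.0% lower in Cct7 KD, and 37.4% and 43.7% with median-of-ratios scaling. In the remainder 41.6% were higher and 43.3% lower, and the counts below are to be read against these shares. The 2-cell-like list had 12 of 12 tested genes higher in Cct7 KD, with sums of 271 and 268 FPKM, against 57.8 and 57.7 in Cct7 KD Ctr, but 7 of 7 tested lower in the remainder. Germ cell markers, which include genes also used in meiosis, summed to 1071 and 1055 FPKM in Cct7 KD, against 146 and 145 in Cct7 KD Ctr, with 6 of 10 higher and 4 lower. Most of this sum is Stra8, at 519 FPKM in Cct7 KD, against 6.83 in Cct7 KD Ctr, and Dazl, at 370.1, against 18.8, while Prdm1, Nanos3, Kit and Tfap2c fell. Trophoblast markers, 11 of 12 listed genes in both tables, summed to 272 and 281 FPKM in Cct7 KD, against 70.8 and 72.7 in Cct7 KD Ctr, with 5 of 8 tested higher and 3 lower. The trophoblast sum rests on keratins: Krt8 averaged 106 FPKM in Cct7 KD, against 9.03 in Cct7 KD Ctr, and Krt7 46.3, against 11.1, while among the other listed genes Hand1 and Tead4 rose and Eomes, Tfap2c and Ascl2 fell (Hand1 was not called with median-of-ratios scaling). Primitive endoderm markers summed to 309 and 316 FPKM in Cct7 KD, against 245 and 245 in Cct7 KD Ctr, with 5 of 7 higher and 2 lower, 3 and 2 with median-of-ratios scaling, and in the remainder 0 of 5 higher and 4 lower. Neural markers summed to 23.0 and 23.0 FPKM in Cct7 KD, against 21.4 and 22.5 in Cct7 KD Ctr (2 of 4 higher, 1 lower, and 1 and 1 scaled), feeder markers, 4 of 9 in both tables, to at most 11.3, against at most 9.91 (1 higher, 1 lower), and mesoderm markers, 5 of 8, to 1.38 and 1.38, against 1.21 and 1.18, with none tested. In Cct5 KD the trophoblast sum was 323 and 333 FPKM, against 65.5 and 67.1 in Cct5 KD Ctr, with 2 of 6 genes higher and 4 lower in the remainder. The germ cell sum was 1444 and 1427 FPKM in Cct5 KD, against 142 and 140.4, with 7 of 10 genes higher and 2 lower in the remainder. The 2-cell-like list had 12 of 12 tested genes higher in Cct5 KD, both as deposited and scaled, where 78.0% and 38.5% of all genes were higher. ES cell markers other than the 3 core factors were 7 of 7 lower in Cct7 KD, but all 7 are already counted in the pluripotency lists above. No listed gene was at 0 in every library, and the part of other cell types in the members' changes was not tested.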

How the data were processed

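Each knockdown and its control share a table of FPKM, which the authors deposited without counts. The submitters' processing notes name HTSeq and mm10. Stranded poly(A) libraries were made from RNA of integrity above 7.0 and sequenced as paired 150 bp reads, per the labels' protocols. The sources used here give no versions, aligner, annotation or gene lengths.

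IDs listed more than once (8 of 21055 entries for Cct5, 6 of 20909 for Cct7) were dropped. Symbols and coordinates came from GENCODE M21 on GRCm38, the assembly also called mm10, and 41 shared IDs had no symbol. Genes averaging 1 FPKM or more in the 4 libraries of a comparison entered limma 3.58.1 (eBayes with a mean trend, R 4.3.3) on log2(FPKM + 1), unscaled. A Benjamini-Hochberg adjusted p under 0.05 over all tested genes was a call. The fit was also run on values simulated from these data, and the outcome is not reported here. Exact permutation tests were two-sided.

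Depth is the denominator at which FPKM of single-transcript genes gives whole fragments within 0.05. With 95% whole values required, 6 libraries passed at 99.07% or more. The Cct5 KD libraries reached 90.5% and 39.5%. To form the remainder, the same-number Cct7 KD value was multiplied by the most common ratio (met by 449 and 427 genes within a relative 1e-06) and taken from the Cct5 KD value. It was negative for 15 of 19896 genes, which were left out.

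The 10 members and the 15 other gene and marker lists were chosen with earlier results of these data known. Besides the members, the text names the 3 nearest genes of 5 members (mean of at least 10 FPKM), overlapping genes, the targets and up to 4 genes per list with the smallest p in Cct7 KD; Stat3, Trp53, Gbx2, Spp1 and other list genes given without values were named after their values were seen, and not every gene this rule picks is reported here. No test set 1 knockdown's change against the other's, since the Cct5 KD values are not independent of Cct7 KD. Alternatives were other scalings, no filter, a pseudocount of 0.1, a replicate block, all 8 libraries in 1 fit, and leaving out each library.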

Additional observations from a re-analysis of the deposited data

Results flagged for a closer look

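Klf4 was lower in both Cct7 KD libraries than in both Cct7 KD Ctr libraries, with a log2 change of −0.283, and higher in both Cct5 KD libraries than in both Cct5 KD Ctr libraries, with a log2 change of 0.1156. Every library of 1 knockdown thus lay on the opposite side of its control from every library of the other. The difference was not tested, because the Cct5 KD values hold a multiple of the Cct7 KD values. With median-of-ratios scaling Klf4 was lower in both, at −0.52 in Cct7 KD and −0.68 in Cct5 KD.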

How the results depend on the processing

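With median-of-ratios scaling, Klf5 (−0.18) and Tfcp2l1 (−0.23), not called in Cct7 KD as deposited, became lower there. In Cct5 KD Klf4 (−0.68) and Klf5 (−0.45) turned from higher to lower, and Tbx3 (−0.76), not called as deposited, became lower. Tfcp2l1 (−0.017) was no longer called there, so 0 members were higher. With a common FPKM total, 1 member was higher in Cct7 KD (Klf5, 0.12) and 1 in Cct5 KD (Tfcp2l1, 0.22). Klf4 (−0.45) and Klf5 (−0.22) then reversed in Cct5 KD, and Tbx3 (−0.53) became lower. In the remainder with median-of-ratios scaling 1 member was higher (Tfcp2l1, 57.5% of control before scaling), Klf4 (−1.06) and Klf5 (−1.04) reversed, and Tbx3 (−1.08) became lower. With all 8 libraries in 1 fit, 1 member (Klf2) was lower in Cct5 KD Ctr than in Cct7 KD Ctr. Prdm14 relative to Pou5f1 depended on low values: with 1 added to each FPKM its log2 ratio difference was −0.69 in Cct7 KD and −1.10 in Cct5 KD, and that of Klf2 in Cct7 KD was 0.66. No filter and a pseudocount of 0.1 changed no member's call or direction.

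Leaving out each library in turn changed no member's call in Cct7 KD (Klf4 −0.31 to −0.25) or between controls. In Cct5 KD it ended the Klf4 call in 2 of 4 cases (0.09 to 0.15), and Tbx3, not called, ranged from −0.02 to 0.05. With the replicate block, 8 members were lower in Cct7 KD and 6 in Cct5 KD, as without it, and no member's call changed. Same-numbered KD and Ctr libraries did not deviate together (correlations −0.0385 for Cct7 and −0.0144 for Cct5), but 2 pairs cannot settle whether the numbers pair the libraries.

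With 2 libraries a group and no separate cultures known, small changes such as those of Klf4, Klf5 and Tfcp2l1 are the least certain, and Prdm14 in Cct7 KD rests on few fragments. FPKM cannot show whether total RNA per cell changed, so directions near 0 are relative to the scaling chosen.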

Other observations

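Relatives of the 10 factors, from the POU, SOX, KLF, ESRR, CP2, T-box and PRDM families, were called in both directions. Of 29 tested in Cct7 KD, 11 rose, 14 fell and 4 were not called (median −0.07), and with median-of-ratios scaling 9 rose and 18 fell (−0.30). Of all tested genes, 49.3% were higher and 32.0% lower there, and 37.4% and 43.7% with scaling. In Cct5 KD 19 of 31 rose and 11 fell, and after scaling 10 rose and 19 fell. In the remainder 5 of 26 rose and 19 fell. All tested genes were 78.0% higher and 11.3% lower in Cct5 KD, 38.5% and 42.7% after scaling, and 41.6% and 43.3% in the remainder. Klf6 averaged 36.0 FPKM in Cct7 KD, against 10.8 in Cct7 KD Ctr (log2 change 1.64, 1.40 scaled), so that it reached the level of Klf2 and Klf5 there. Prdm1, the BLIMP1 gene of germ cell specification, averaged 7.65 FPKM in Cct7 KD, against 29.6 in Cct7 KD Ctr (−1.82). Pou2f3 averaged 0.768 FPKM in Cct7 KD, against 7.20 in Cct7 KD Ctr (−2.22).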
